A study of Mus musculus with 4 samples.

Results

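Retinoic acid synthesis and signalling is represented here by 9 genes, *Aldh1a1*, *Aldh1a2*, *Aldh1a3*, *Rara*, *Rarb*, *Rarg*, *Cyp26b1*, *Stra6* and *Rbp4*. They were taken by gene name, with no rule on measured values, from the 45706 genes of the deposited count table. Retinoic acid is made from vitamin A inside tissues. Retinol travels in blood on the carrier RBP4, enters some cells through the receptor STRA6 and is oxidized to retinal. The retinaldehyde dehydrogenases ALDH1A1, ALDH1A2 and ALDH1A3 then oxidize retinal to retinoic acid, which is degraded by enzymes such as CYP26B1. The acid binds the nuclear receptors RARA, RARB and RARG, which sit on DNA with an RXR partner at repeated short motifs and switch target genes. In the lung the pathway is known for its part in forming the lung bud, in patterning the branching airways and in building alveoli.

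The table held the RNA-seq counts of the left lung lobes of 2 wild-type and 2 *Myh10L458R/L458R* mice at embryonic day 17, all of the C57BL/6 strain and untreated. The mutants carry, in every cell, 2 copies of a chemically induced L458R change in nonmuscle myosin heavy chain II-B, so an effect in 1 cell type cannot be told apart from an effect of another, and their alleles come from a single mutagenized line. Whole lobes were measured, so fewer cells of a type and less RNA per cell cannot be told apart. Between 19116971 and 32055306 reads were counted on genes in a lung, and 1 read was worth 0.0311 to 0.0525 CPM, the reads of a gene scaled to library sizes normalized by TMM. The lung genes *Nkx2-1*, *Foxf1*, *Tbx4* and *Sftpc* were counted in every lung. The mutated gene *Myh10* had 505 and 504 CPM in wild-type and 539 and 513 CPM in mutant lungs, which does not check the labels, since the mutation changes a single base. Wild-type lung 1 and mutant lung 2 had *Xist* at 3916 and 4457 CPM, whereas the other lungs had at most 4.10 CPM. The Y-linked gene *Ddx3y* had 0.437 and 0.0932 CPM in these 2 lungs, but 181.5 CPM in wild-type lung 2 and 198.2 CPM in mutant lung 1. Each genotype thus held 1 lung with the levels of a female and 1 with those of a male, though the labels do not give sex. Sex is therefore part of the spread within each genotype.

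Whether the mutation went with a change in this pathway was asked gene by gene (edgeR, quasi-likelihood, p adjusted by Benjamini-Hochberg). The fit took in 18763 genes whose mean count reached 5, among them all 9 retinoic acid genes. None of the 9 passed an adjusted p of 0.05, against 1.64% of all genes tested, and with the replicate number as a block in the fit none passed either, against 3.78%. At an unadjusted p under 0.05 there was 1 gene, *Cyp26b1*, against 16.5% of all genes tested. DESeq2 also called none of the 5 genes to which it gave an adjusted p (0.542 to 0.904), against 3.50% of all genes with one. It left 4 without one, among them *Cyp26b1*, the 1 gene of the 9 with an unadjusted p under 0.05 in that test. Of all 18763 genes tested, 1786 had such a p from DESeq2. In 4 of the 9 genes the CPM of the genotypes did not overlap, against 48.3% of all genes tested. The median log2 fold change of the 9 genes, mutant over wild-type, was -0.08, with a range of -0.36 to 0.15, and that of all genes tested was 0.0018. The plot of CPM by lung shows each value.

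**Figure D1:**
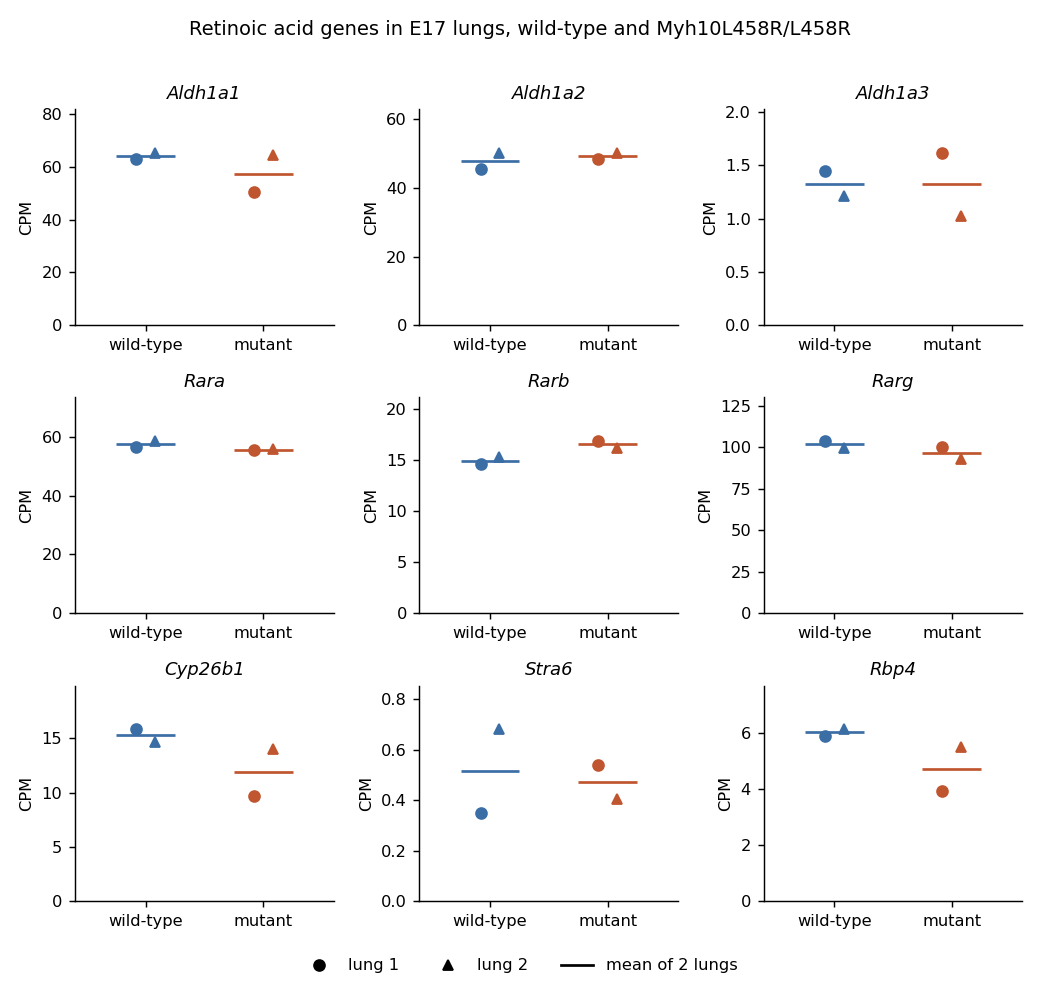
CPM of the 9 retinoic acid genes in each lung; every panel has its own vertical axis from 0, circles are lung 1, triangles lung 2, and lines are the means of 2 lungs (blue wild-type, orange *Myh10L458R/L458R*, labelled mutant). Mutant lung 1 lies below the other 3 lungs for *Aldh1a1*, *Cyp26b1* and *Rbp4*, while the points of *Aldh1a2* and *Rarg* of the 2 genotypes overlap.

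The receptor gene *Rarb* is itself a classic target of retinoic acid, through a repeat of a short motif before its start. Promoter windows from RefSeq (GRCm38.p6, 250 bases before to 50 after each start) were searched on both strands for hexamers that receptors of this family bind, repeated in the same direction with a spacer of 1, 2 or 5 bases. The hexamers allowed were AGGTCA, the usual form, its variant AGTTCA, and those forms that begin with G, GGGTCA or else GGTTCA. Of the 9 genes, 8 had at least 1 window, 17 in all, and *Aldh1a3* had none. A single match was found in these 17 windows, in *Rarb*, with a spacer of 5 bases (DR5), which 0.0974% of all 32851 windows held (0.222% held the repeat with a spacer of 1 and 0.268% that with a spacer of 2). In the wider list of retinoid genes described below, *Cyp26a1*, which encodes another retinoic acid-degrading enzyme, had the same kind of match, and *Bco1*, which encodes a carotene-cleaving enzyme, held the repeat with a spacer of 1. The promoters of *Rarb* and *Cyp26a1* are shown because both carry the same kind of repeat while *Rarb* was readily counted and *Cyp26a1* hardly at all. They are printed 5′ to 3′ along the gene, the 120 bases before the start, with the hexamers in capitals. That of *Rarb* is chr14:16575477-16575596 on the minus strand, and that of *Cyp26a1* is chr19:37697688-37697807 on the plus strand.

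*Rarb*: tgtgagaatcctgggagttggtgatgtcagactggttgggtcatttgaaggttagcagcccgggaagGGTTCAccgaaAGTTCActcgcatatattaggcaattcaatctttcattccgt
*Cyp26a1*: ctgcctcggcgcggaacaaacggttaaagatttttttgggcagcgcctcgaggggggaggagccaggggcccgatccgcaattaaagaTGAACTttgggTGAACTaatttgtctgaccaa

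The *Rarb* repeat lies 53 to 37 bases before the start (chr14:16575513-16575529), and that of *Cyp26a1*, which reads on the opposite strand to the gene, 32 to 16 bases before it (chr19:37697776-37697792). *Rarb* was counted at 291 to 521 reads in a lung. The annotated gene extends upstream of this start, to chr14:16819156, so these reads need not come from transcripts that begin here. Genes on the opposite strand also overlap its exons, as described below. *Cyp26a1* was counted at 2 and 0 reads in wild-type and 1 and 0 reads in mutant lungs. It was under the mean count of 5 that the fit required and was not tested. No difference between genotypes was detectable for *Cyp26a1* at this depth. A match in these letters is a description of the sequence and does not show that a receptor was bound there.

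Of the synthesis enzymes, *Aldh1a2* (ENSMUSG00000013584, chr9:71215789-71296243, plus strand), the main source of retinoic acid in most of the embryo, had 45.5 and 50.3 CPM in wild-type and 48.3 and 50.3 CPM in mutant lungs. The genotypes overlapped, and the log2 fold change of 0.04 ± 0.08 (SE, adjusted p = 0.837) had a 95% interval of -0.13 to 0.21, or -8.51% to 15.9%. *Aldh1a1* (ENSMUSG00000053279, chr19:20492715-20643465, plus strand), known for its expression in adult epithelia and in other retinal-oxidizing cells, had 63.0 and 65.5 CPM in wild-type lungs. In the mutants it had 50.5 CPM in lung 1 and 64.5 CPM in lung 2, so that 1 mutant lung was low and the other lay within the wild-type range. Its log2 fold change was -0.16 ± 0.10 (SE, adjusted p = 0.461, 95% interval -0.38 to 0.06). Without mutant lung 1 it was 0.0085 (adjusted p = 0.984), and without mutant lung 2 it was -0.35 (adjusted p = 0.0115), a call that rests on the lone mutant lung 1. *Aldh1a3* (ENSMUSG00000015134, chr7:66390890-66427517, minus strand) was counted at only 33 and 23 reads in wild-type and 45 and 33 reads in mutant lungs, and the 95% interval of its log2 fold change of -0.03 was -0.71 to 0.65, so that no difference was detectable at this depth.

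Mouse *Aldh1a1* has a close paralog, *Aldh1a7*, on the same chromosome, and reads that align to several regions were left out of the counts. Of the 2284 windows of 75 bases, the longest read length, along the longest *Aldh1a1* transcript, 50 (2.19%) also occurred in *Aldh1a7*, in 3 coding stretches that each cross an exon junction. The longest of these, 100 bases identical in both genes, is shown because reads lying wholly in it could not be assigned to either: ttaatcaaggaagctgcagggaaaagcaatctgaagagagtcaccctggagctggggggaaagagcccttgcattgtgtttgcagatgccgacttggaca. It spans exons 11 and 12 of *Aldh1a1* (chr19:20629063-20630671) and exons 8 and 9 of *Aldh1a7* (chr19:20708329-20709491, minus strand). *Aldh1a7* had 196 and 201 CPM in wild-type and 186 and 191 CPM in mutant lungs. The genotypes did not overlap, but the log2 fold change of -0.08 ± 0.05 (SE, adjusted p = 0.447, 95% interval -0.18 to 0.03) was not called.

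Among the receptors, *Rarg* (ENSMUSG00000001288, chr15:102234938-102257517, minus strand) had 104 and 99.7 CPM in wild-type and 100 and 93.0 CPM in mutant lungs, and *Rara* (ENSMUSG00000037992, chr11:98927818-98974942, plus strand) had 56.5 and 58.7 CPM against 55.7 and 55.7 CPM. The genotypes overlapped for *Rarg*, and for *Rara* every mutant value was below every wild-type value by a small margin. Their log2 fold changes were -0.08 ± 0.06 (SE, adjusted p = 0.561) and -0.05 ± 0.07 (SE, adjusted p = 0.783). The 95% intervals, -0.21 to 0.05 and -0.20 to 0.10, correspond to changes of -13.4% to 3.75% for *Rarg* and of -13.0% to 7.49% for *Rara*. *Rarb* (ENSMUSG00000017491, chr14:16430839-16819156, minus strand) had 14.6 and 15.3 CPM in wild-type and 16.9 and 16.2 CPM in mutant lungs. It was the only gene of the 9 with both mutant lungs above both wild-type lungs, which held for 23.9% of all genes tested. Its log2 fold change of 0.15 ± 0.08 (SE, adjusted p = 0.419, 95% interval -0.04 to 0.33) was not called. On the opposite strand, *Top2b* and *Gm48162* overlap 2020 bp of *Rarb* exons, and 52.1% of the 75-base windows of the longest *Rarb* transcript also lie in *Top2b*. Whether counting used strand is not stated, so the count of *Rarb* is uncertain.

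*Cyp26b1* (ENSMUSG00000063415, chr6:84571414-84593908, minus strand), which encodes the enzyme that clears retinoic acid from tissues, had the log2 fold change farthest from 0 of the 9 genes in the fit of all 4 lungs. That of *Stra6*, at its low counts, was farther from 0 when wild-type lung 1, wild-type lung 2 or mutant lung 1 was left out. So was that of *Rbp4* without wild-type lung 1, and those of *Aldh1a3* and, by a hair, *Rarg* without mutant lung 1. *Cyp26b1* had 15.9 and 14.7 CPM in wild-type lungs (364 and 280 reads), and 9.74 and 14.0 CPM in mutant lungs 1 and 2 (271 and 450 reads). Both mutant lungs were below both wild-type lungs, but mutant lung 2 only just, and the spread between the mutant lungs was wider than the gap from mutant lung 2 to the wild-type lungs. The log2 fold change was -0.36 ± 0.14 (SE, unadjusted p = 0.0244, adjusted p = 0.222 from edgeR, 95% interval -0.67 to -0.06 before adjustment). Without mutant lung 1 it was -0.13, and without mutant lung 2, a value that rests on the lone mutant lung 1, it was -0.65. Testing every gene with at least 1 count moved the adjusted p to 0.0173 at a log2 fold change of -0.36. That fit called 1162 of 28549 genes, against 308 of 18763 in the main fit. Between the lungs with high *Xist*, the wild-type value was 15.9 and the mutant value 14.0 CPM, and between the other lungs 14.7 and 9.74 CPM.

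Of the transport genes, *Rbp4* (ENSMUSG00000024990, chr19:38116629-38125281, minus strand), best known as a liver product, had 5.89 and 6.14 CPM in wild-type and 3.92 and 5.50 CPM in mutant lungs. Mutant lung 1 was again the lowest of the 4, and the log2 fold change of -0.34 ± 0.18 (SE, adjusted p = 0.360, 95% interval -0.73 to 0.04) was not called. Without mutant lung 1 it was -0.13. The liver markers *Alb*, *Afp*, *Apoa1*, *Apoa2*, *Apoh*, *Ahsg* and *Fgb* together had 11.2 and 6.57 CPM in wild-type and 10.3 and 5.07 CPM in mutant lungs. Any link between these markers and the *Rbp4* values was not tested. None of the 6 liver markers tested was called. *Stra6* (ENSMUSG00000032327, chr9:58063788-58153996, plus strand) was counted at 8 and 13 reads in wild-type and 15 and 13 reads in mutant lungs. No difference was detectable at this depth (95% interval -1.11 to 0.90), and its log2 fold change of -0.10 (adjusted p = 0.941) turned positive without wild-type lung 2 or without mutant lung 2.

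Levels of different genes were compared as CPM per kb of annotated exon. In this order *Rarg* (21.8 to 24.4 over the 4 lungs) and *Aldh1a2* (20.1 to 22.2) were highest, with overlapping ranges, followed by *Rara* (12.8 to 13.4) and *Aldh1a1* (10.2 to 13.3), whose ranges also overlapped. *Rbp4* (2.92 to 4.58), *Rarb* (2.78 to 3.21) and *Cyp26b1* (1.82 to 2.97) formed the next level, each overlapping its neighbour. *Aldh1a3* (0.222 to 0.350) and *Stra6* (0.0599 to 0.117) were lowest and separate from each other. For the 7 genes other than *Aldh1a1* and *Rarb*, no 75-base window of the longest transcript occurred in another gene. Summed per length, the 3 receptor genes reached 40.1 and 39.7 in wild-type and 39.5 and 37.7 in mutant lungs, and *Rarg* made up 58.0% to 60.8% of that sum, *Rara* 32.2% to 33.9% and *Rarb* 6.92% to 8.16%. The genes of their RXR partners (*Rxra*, *Rxrb* and *Rxrg*) summed to 39.5 and 41.2 in wild-type and 39.3 and 39.2 in mutant lungs. The 3 synthesis genes summed to 33.2 and 35.7 in wild-type and 31.9 and 35.5 in mutant lungs. *Aldh1a3* gave 0.626% to 1.10% of this sum. The share of *Aldh1a2* was 60.6% to 66.9%, but 42.6% to 49.4% when the length of the longest transcript stood in for all exons, so that the order of *Aldh1a1* and *Aldh1a2* depends on the length used. With that length *Aldh1a1* (25.8, mean of the 4 lungs) also came above *Rara* (16.7), and *Rarb* (5.07) above *Rbp4* (4.62). In the plot of levels per length, the alcohol dehydrogenase gene *Adh1* (277 to 338) and *Aldh1a7* (89.9 to 97.3) lie above every one of the 9 genes.

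**Figure D2:**
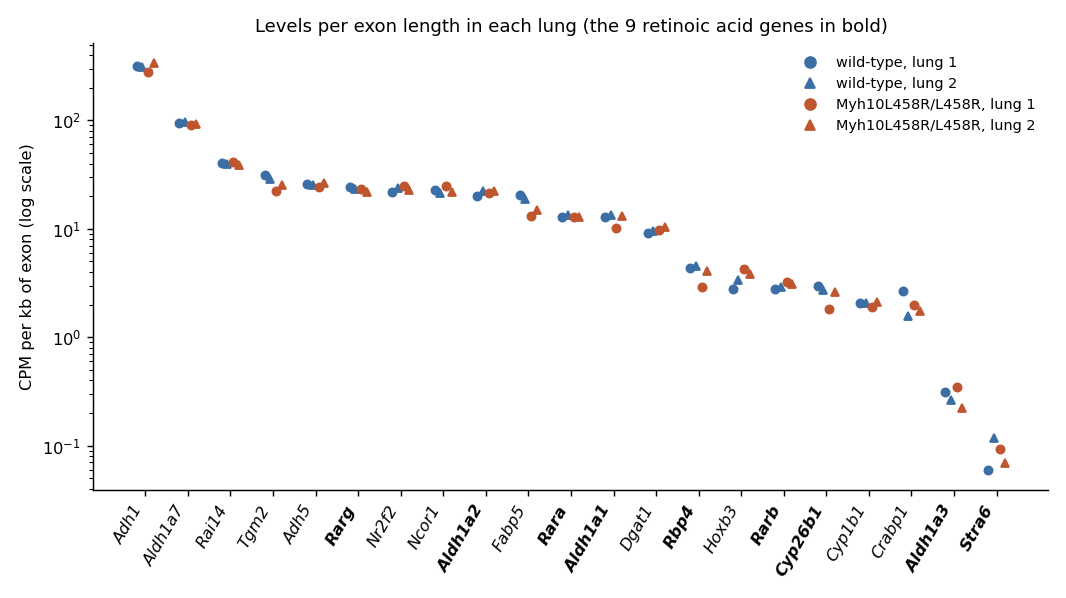
CPM per kb of annotated exon (log scale) of the 9 retinoic acid genes, in bold, and the named genes of the wider retinoid list that passed the filter, ordered by the mean over 4 lungs; blue is wild-type and orange *Myh10L458R/L458R*, circles lung 1 and triangles lung 2. Levels run from 277 to 338 for *Adh1* to 0.0599 to 0.117 for *Stra6*.

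The rest of the pathway was read from a list of 68 genes in 7 roles, of which 53 passed the filter. Of these 53, 2 were lower in the mutants at an adjusted p under 0.05 (1.34% of all genes tested were) and 0 were higher (0.298% of all genes tested). At an unadjusted p under 0.05 there were 8 of the 53, against 16.5% of all genes tested. DESeq2 called 2, against 3.50% of the 10032 genes to which it gave an adjusted p. It left some of the 53 without one, so these 2 are not a share of 53 to set beside that percent. The median log2 fold change was -0.01, with 23 genes positive and 30 negative. Their fold changes are drawn with their intervals in the plot of fold changes.

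**Figure D3:**
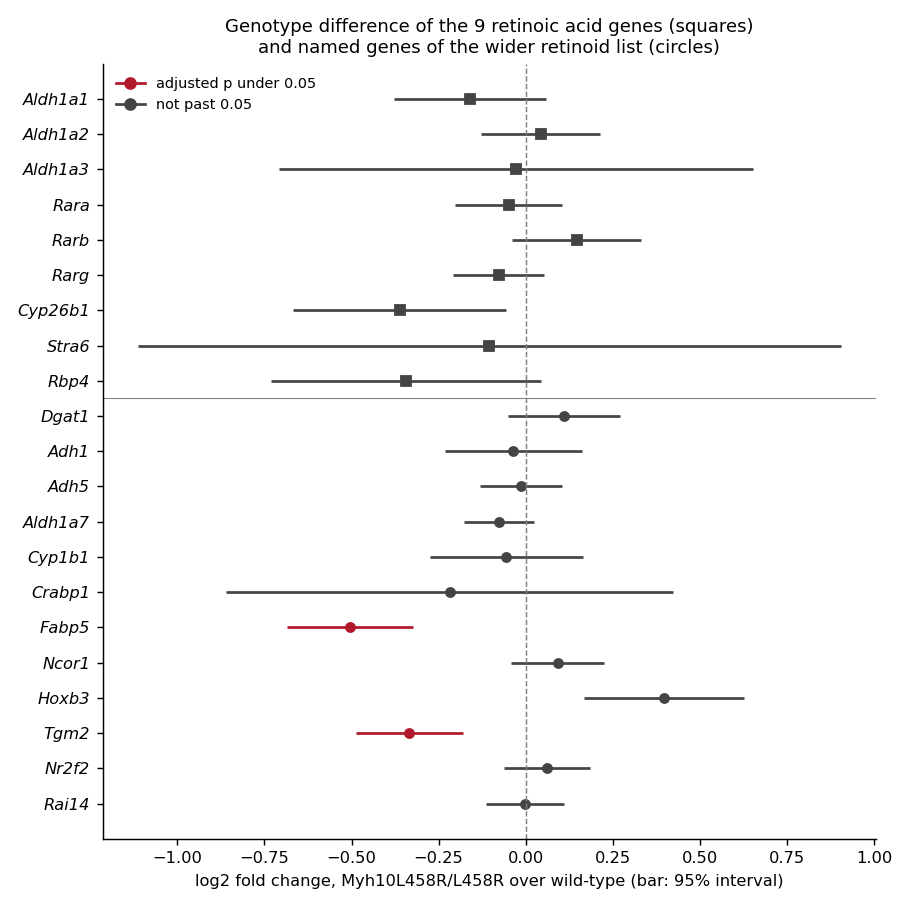
Log2 fold change, *Myh10L458R/L458R* over wild-type, with its 95% interval (bars), of the 9 retinoic acid genes (squares) and the named genes of the wider list that passed the filter (circles); red marks an adjusted p under 0.05 from edgeR. *Fabp5* (-0.50) and *Tgm2* (-0.33) are red, and the widest interval is that of *Stra6* (-1.11 to 0.90).

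*Fabp5*, a fatty acid-binding protein that can also carry retinoic acid to the nuclear receptor PPARD, had 73.8 and 67.7 CPM in wild-type and 46.5 and 53.2 CPM in mutant lungs. Both mutant lungs were well below both wild-type lungs. It fell by 0.50 on the log2 scale (standard error 0.08, adjusted p = 0.0141, edgeR), a change of -29.5% with a 95% interval of -37.8% to -20.1%. The other genes of intracellular retinoid binding, *Crabp1* and *Crabp2*, bind retinoic acid in the cytoplasm. *Crabp1* had 24 to 49 reads in a lung and a log2 fold change of -0.22 (95% interval -0.86 to 0.42). *Crabp2* had 12 to 16 reads and a log2 fold change of -0.52 (95% interval -1.42 to 0.39), and neither of them was called. *Tgm2*, a transglutaminase that crosslinks proteins and is a known retinoic acid-inducible gene, had 145 and 133 CPM in wild-type and 102 and 118 CPM in mutant lungs, a fall by 0.33 on the log2 scale (standard error 0.07, adjusted p = 0.0372, edgeR). Without wild-type lung 1 its adjusted p was 0.170. Antisense genes share 13.8% (*Gm20412*) and 2.98% (*Rprd1b*) of the *Tgm2* windows, so its count is uncertain to that extent.

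Among the 22 genes listed as responsive to retinoic acid, 18 were tested, of which 1, *Tgm2*, was lower and none was higher. The log2 fold changes of 11 were positive and those of 7 negative (median 0.09), and 6 of the 18 had an unadjusted p under 0.05, against 16.5% of all genes tested. Of the 11 *Hox* genes in it, 9 were tested, 6 of them positive, and none passed (median 0.13), a subset drawn up after the values were seen. The nearest to the threshold was *Hoxb3*, a homeobox gene of axial patterning. It had 11.8 and 14.4 CPM in wild-type and 18.1 and 16.4 CPM in mutant lungs, with no overlap, and a log2 fold change of 0.40 ± 0.11 (SE, adjusted p = 0.0852, edgeR). Testing every gene with at least 1 count, a fit that called 1162 of 28549 genes, moved its adjusted p to 0.00362. The log2 fold change was 0.54 without wild-type lung 2 and 0.47 without mutant lung 2. Without wild-type lung 1 it was 0.25, and without mutant lung 1 it was 0.33. An antisense gene, *Hoxb3os*, covers 67.6% of the *Hoxb3* windows, so this count is uncertain. The genes of the list with the highest CPM, not adjusted for length, were *Rai14* and *Nr2f2*, an orphan nuclear receptor of mesenchyme, and had log2 fold changes of -0.0013 (95% interval -0.11 to 0.11) and 0.06 (-0.06 to 0.18).

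No gene of the remaining roles passed. Of 9 transport and storage genes 5 were tested (median log2 fold change 0.05). *Dgat1*, an acyltransferase that can esterify retinol, had a log2 fold change of 0.11 (adjusted p = 0.499). Of 18 genes that convert retinol and retinal 14 were tested (median -0.04). *Adh1* had 709 and 700 CPM in wild-type lungs, and 619 and 755 CPM in mutant lungs 1 and 2, on either side of the wild-type values. The log2 fold change of *Adh5* was -0.01 (95% interval -0.13 to 0.10). Of the degradation genes, *Cyp1b1* had 12.2 and 12.1 CPM in wild-type and 11.0 and 12.3 CPM in mutant lungs, and *Cyp26c1* had at most 4 reads in a lung. Of the other aldehyde dehydrogenases, *Aldh8a1* had at most 6 reads. All 11 receptor partners and coregulators were tested (median -0.02), and the corepressor gene *Ncor1*, whose product holds unliganded receptors silent, had a log2 fold change of 0.09 (95% interval -0.04 to 0.22).

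**Figure D4:**
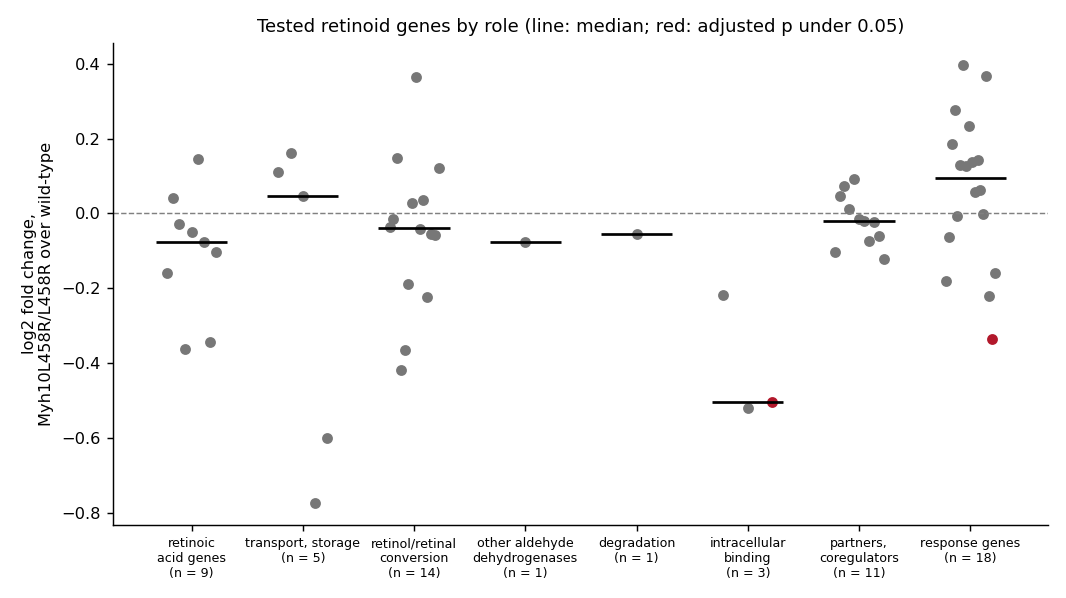
Log2 fold change, *Myh10L458R/L458R* over wild-type, of each tested gene by role, with the number tested under each role and the median as a line; red marks an adjusted p under 0.05 from edgeR. The medians lie between -0.08 and 0.09 except for the 3 genes of intracellular binding (-0.50), where the median is the value of *Fabp5*. The only red points are *Fabp5* and *Tgm2*.

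Cell type markers moved between these lungs as well. The alveolar type 1 markers *Hopx*, *Ager*, *Aqp5*, *Pdpn* and *Rtkn2* together had 1164 and 1146 CPM in wild-type lungs, and 716 and 882 CPM in mutant lungs 1 and 2. By edgeR, which gave all calls in this paragraph, 5 of 5 were called lower, against 1.34% of all genes tested. DESeq2 did not call *Hopx* (adjusted p = 0.2317) or *Aqp5* (0.0531). Nor did it call the airway marker *Scgb1a1* (0.0529), the mesothelial marker *Msln* (0.1325) or *Lyz2* (0.1636). The alveolar type 2 markers (3 of 5 called lower) and airway markers (2 of 4) were also lowest in mutant lung 1, at 69.9% and 69.4% of their wild-type means, against 82.2% and 80.7% in mutant lung 2. These sums were mostly those of 1 gene each that was not called. In wild-type lungs *Sftpc* had 5815 and 5630 of 7582 and 7282 CPM, and *Scgb3a2* had 489 and 658 of 703 and 891 CPM. The type 2 marker *Etv5* had a log2 fold change of 0.0079. The leukocyte markers *Ptprc*, *Cd68*, *Csf1r* and *Lyz2* (1 of 4 called lower, *Lyz2*, which alveolar type 2 cells also express) were at 70.0% and 84.6%, and at 85.3% and 91.3% without *Lyz2*. The mesothelial markers *Wt1*, *Upk3b*, *Upk1b*, *Msln* and *Lrrn4* (1 of 5 called, *Msln*) were at 70.8% and 85.8%, and at 88.2% and 97.4% without *Msln*, while *Aldh1a2* was at 101% and 105% of its wild-type mean. The endothelial and mesenchymal markers, none of which was called, were at 93.9% and 89.5%, and at 98.0% and 101%. Of the 5 mesenchymal markers, 3 had positive and 2 negative log2 fold changes (-0.14 to 0.17). Heart muscle markers had 207 and 267 CPM in wild-type and 166 and 152 CPM in mutant lungs, and 4 of 5 tested were called lower. Of the 9 retinoic acid genes, 5 were lower in mutant lung 1 than in mutant lung 2, as were 50.3% of all genes tested. They were *Cyp26b1* (63.7% and 91.4%), *Rbp4* (65.1% and 91.4%), *Aldh1a1* (78.5% and 100%), *Aldh1a2* (101% and 105%) and *Rara* (96.6% and 96.7%). The other 4 were higher in mutant lung 1, namely *Aldh1a3* (122% and 77.4%), *Stra6* (104% and 78.3%), *Rarb* (113% and 108%) and *Rarg* (98.3% and 91.3%). The part of cell type composition in these values was not tested.

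**Figure D5:**
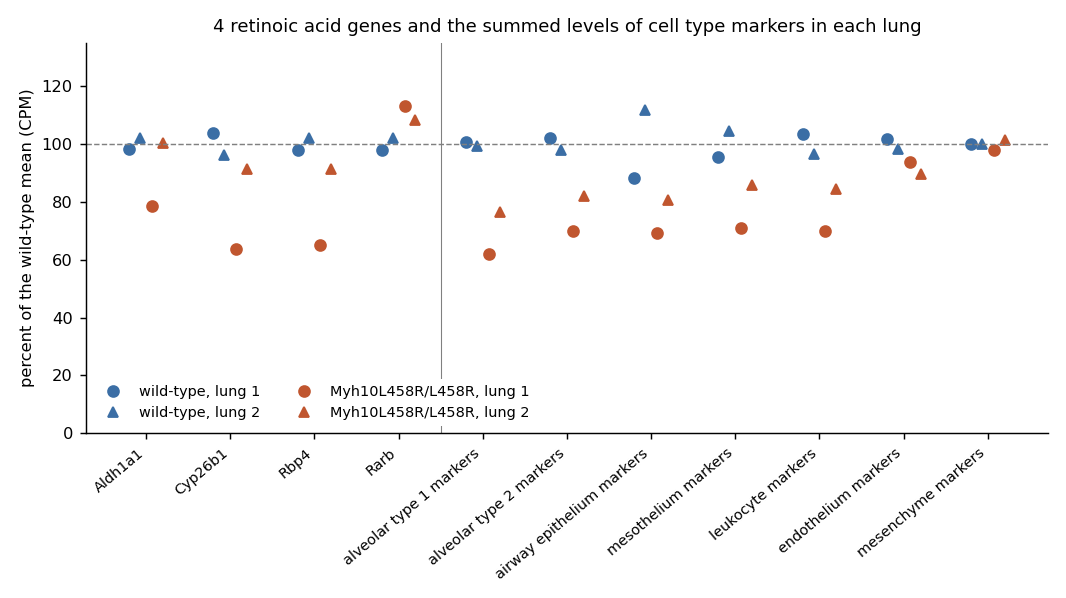
CPM of *Aldh1a1*, *Cyp26b1*, *Rbp4* and *Rarb*, and the summed CPM of the markers of 7 cell types, in each lung as a percent of the mean of the 2 wild-type lungs (dashed line at 100). Mutant lung 1 (orange circles) is at 62.0% for alveolar type 1 markers, 63.7% for *Cyp26b1* and 65.1% for *Rbp4*, and mesenchymal markers stay at 98.0% to 101% in the mutants. For the retinoic acid genes not drawn, mutant lung 1 was at 96.6% (*Rara*), 98.3% (*Rarg*), 100.8% (*Aldh1a2*), 104.5% (*Stra6*) and 122% (*Aldh1a3*).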

How the data were processed

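The deposited table gives, for each Ensembl gene and lung, an unnormalized count of reads. For it the authors prepared stranded mRNA libraries, read 75 bases from 1 end, trimmed with Reaper, mapped with STAR 2.4.0a on GRCm38 (mm10) and counted exonic reads with featureCounts 1.5.1. A read on more than 1 gene or mapped position was dropped. Their strand setting and Ensembl release are not given in the sources used here.

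Groups were taken from the sample labels. CPM used TMM library sizes, and genotypes were compared with glmQLFTest of edgeR 4.0.16 (R 4.3.3) on genes with a mean of 5 counts or more, a minimum the study set for significant genes together with one on fold change, which was not applied. Intervals of 95% come from the same fit. The test was also run on simulated counts, drawn with the same dispersion in both genotypes. That run cannot show how the test fares where the spread differs between genotypes. The labels give 2 lungs per genotype, which the paper describes as coming from 2 mice. The p-values rest on the spread between these 2 lungs, moderated by the spread of all genes tested. DESeq2 1.42.0, other scalings and filters, a replicate block and leaving out each lung were alternatives. Positions, exon lengths and shared windows come from GENCODE M21 on GRCm38, and promoters from RefSeq.

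The genes, lists and tests were chosen with earlier results of these data known. Named are the 9 retinoic acid genes, genes of the wider list called in any fit with 4 lungs or among the 2 most abundant of their role, *Aldh1a7* and *Myh10*, while some items that this rule would name are not reported here. Liver, mesothelial and other marker lists stand beside the results.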

Additional observations from a re-analysis of the deposited data

How the results depend on the processing

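With the replicate number as a block, 710 genes passed instead of 308, but 0 of the 9 retinoic acid genes and 2 of the wider list, as without it. The numbers were not taken as pairs, since deviations of same-numbered lungs had a correlation of -0.203 across genes, which are not independent replicates. With the numbers crossed, an alternative added after the data were seen, 415, 0 and 2 genes passed. Crossing put together the lungs alike in *Xist*, wild-type lung 1 with mutant lung 2 and wild-type lung 2 with mutant lung 1. Same-numbered lungs differed in *Xist*. Over all genes, 1162 passed with no filter beyond 1 count, 474 with robust = TRUE and 696 at an adjusted p of 0.1. With library totals 234 of 346 were lower, against 252 of 308. Among the 9 genes, 1 (*Cyp26b1*) passed with no filter beyond 1 count. With each lung left out in turn, where the lone lung of a genotype is assumed to vary like the others, 206 to 1643 genes passed in all, 0 to 2 of the 9 genes and 1 to 7 of the wider list. The highest counts came without mutant lung 2, when *Aldh1a1* and *Cyp26b1* passed, and *Tgm2* did not pass without wild-type lung 1. Log2 fold changes that changed sign with a lung left out ran from -0.35 to 0.0085 (*Aldh1a1*), -0.029 to 0.11 (*Aldh1a2*), -0.37 to 0.28 (*Aldh1a3*), -0.54 to 0.42 (*Stra6*), -0.18 to 0.10 (*Adh1*), -0.070 to 0.043 (*Adh5*), -0.13 to 0.019 (*Cyp1b1*), -0.53 to 0.24 (*Crabp1*), -0.042 to 0.042 (*Rai14*) and -0.0014 to 0.13 (*Nr2f2*). With library totals, *Adh5* (0.0058) and *Rai14* (0.019) turned positive, and *Rai14* also with no filter beyond 1 count (0.0025), filterByExpr (5.4e-05) and without chromosomes X, Y and MT (0.00028). Per length of the longest transcript, mean levels were 33.6 (*Rarg*), 16.7 (*Rara*), 25.8 (*Aldh1a1*), 4.62 (*Rbp4*), 5.07 (*Rarb*), 3.02 (*Cyp26b1*), 0.384 (*Aldh1a3*) and 0.161 (*Stra6*) CPM per kb. The cause of these changes was not tested.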
